A study of Mus musculus with 34 samples.

Results

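The regions described here lie in 3 antigen receptor loci of the mouse genome (build mm10, GRCm38). They were taken by position: every deposited ChIP-seq region whose start falls in chromosome 14 from 52400000 to 54230000 (Tra, the T cell receptor alpha and delta locus), chromosome 12 from 113200000 to 116010000 (Igh, the immunoglobulin heavy chain locus) or chromosome 6 from 67500000 to 70730000 (Igk, the immunoglobulin kappa light chain locus). The region list shared by 3 of the 4 count tables held 534 such regions of 248336, namely 143 in Tra, 222 in Igh and 169 in Igk. The fourth table, H3K27ac in separate lines, has its own list, with 145 such regions of 96988 (46, 24 and 75).

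The study profiled 2 histone marks, H3K9me3 and H3K27ac, by ChIP-seq of MNase-fragmented, formaldehyde-fixed chromatin from mouse embryonic stem cells grown in serum with LIF, PD0325901 and CHIR99021. It comprised 34 libraries in 12 groups. In the first series, called separate lines here, each mark was measured once in 3 C57BL/6J lines (B6 4-1, B6 4-4 and B6 5-1) and 3 DBA/2J lines (D2 2-9, D2 5-5 and D2 203). In the second series, called repeated libraries here, 1 line per genotype was measured 2 or 3 times: B6 5-1, D2 5-5, the congenic line B6-13D2 (QJ 6-1), which carries a D2 segment of chromosome 13 in a B6 background, and the reciprocal congenic line D2-13B6 (XE 2-4). The 3 loci lie off chromosome 13, so each congenic line carries the alleles of its background there, as far as the strain names tell. Repeats of 1 line are technical replicates, so p-values in the second series measure only the spread between such repeats and compare 4 lines, not strains. The lines B6 5-1 and D2 5-5 stand in both series. H3K9me3 was precipitated with an Active Motif antibody throughout, and H3K27ac with an abcam antibody in the separate lines and a Cell Signaling antibody in the repeated libraries, so H3K27ac levels are not compared between the series.

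Antigen receptor loci hold long arrays of variable (V) gene segments, followed by diversity (D) and joining (J) segments and constant (C) genes. In developing lymphocytes the RAG recombinase joins 1 V segment to a J or DJ segment at recombination signal sequences, each made of a conserved heptamer and nonamer with a spacer between them. Embryonic stem cells do not rearrange these loci. H3K9me3 marks heterochromatin and silenced repeats, and H3K27ac marks active promoters and enhancers, so both marks on 1 region in the same strain are not the usual pairing.

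The sequences on which the comparisons turn are shown first, read from the GRCm38 reference, which is the B6 strain. Capitals in the region sequences mark bases that the reference masks as repeats. The Tra region is intergenic, 95 bases from the predicted gene Gm43650 near Trav8n-2, and had the largest difference shared by both marks in Tra. The Igh sequence is the middle of the region over the V pseudogene Ighv1-44, which had the largest shared difference in Igh. The Igk sequence is the middle of an intergenic region near the predicted gene Gm42720, which had the largest difference between the D2 and D2-13B6 lines.
Tra, chr14:53344017-53344226, plus strand: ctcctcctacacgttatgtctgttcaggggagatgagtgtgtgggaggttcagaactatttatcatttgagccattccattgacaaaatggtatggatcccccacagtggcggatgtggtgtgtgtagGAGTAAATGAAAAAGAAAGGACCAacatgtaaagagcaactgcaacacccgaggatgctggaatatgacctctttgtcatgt
Igh, chr12:114964199-114964498, plus strand: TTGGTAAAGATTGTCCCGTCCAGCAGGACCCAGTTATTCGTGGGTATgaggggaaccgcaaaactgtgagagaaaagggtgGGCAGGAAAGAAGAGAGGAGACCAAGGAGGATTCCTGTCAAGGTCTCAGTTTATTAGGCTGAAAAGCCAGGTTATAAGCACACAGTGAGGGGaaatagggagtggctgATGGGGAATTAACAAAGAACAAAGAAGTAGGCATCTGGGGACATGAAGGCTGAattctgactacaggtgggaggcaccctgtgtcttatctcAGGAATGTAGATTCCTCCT
Igk, chr6:70477295-70477594, plus strand: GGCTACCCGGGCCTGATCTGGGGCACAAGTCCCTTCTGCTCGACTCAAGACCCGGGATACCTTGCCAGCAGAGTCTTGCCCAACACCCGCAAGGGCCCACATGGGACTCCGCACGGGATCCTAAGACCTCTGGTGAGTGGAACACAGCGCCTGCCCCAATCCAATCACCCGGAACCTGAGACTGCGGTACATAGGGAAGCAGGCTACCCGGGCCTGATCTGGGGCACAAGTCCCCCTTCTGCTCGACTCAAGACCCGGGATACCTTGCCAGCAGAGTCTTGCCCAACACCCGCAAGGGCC
Repeats cover 24 of the 210 bases printed for Tra, 211 of the 300 for Igh and all 300 for Igk. Within the Igk sequence a run of 67 bases occurs again 203 bases further on, so that array is a tandem repeat.

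Most V genes of the 3 loci are followed by the heptamer of a recombination signal in the reference. As an example, Trav12-3, a V gene under a region with both marks, is followed directly by a heptamer (capitals), 23 spacer bases and a nonamer (capitals) that matches 7 of the 9 bases of ACAAAAACC.
Trav12-3 signal, chr14:53622246-53622284, plus strand: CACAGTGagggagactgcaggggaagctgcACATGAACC
The heptamer CACAGTG, searched on the gene's strand in the 60 bases after each V gene, followed 96 of 115 Tra V genes, 82 of 115 Igh V genes and 86 of 102 Igk V genes. It followed 11 of 21 V pseudogenes in Tra, 27 of 81 in Igh and 24 of 74 in Igk, and Ighv1-44 is among those without a match. A nonamer matching at least 7 of the 9 bases stood beyond the spacer behind 66 of the Tra, 25 of the Igh and 84 of the Igk V genes. The middle 60 bases of all 248336 shared regions held the heptamer on the plus strand in 1.26% of cases. A match to these letters is a description of the reference and not a measured site.

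Library totals ranged from 1487862 to 2559262 counts for H3K9me3 and from 8735674 to 18272793 for H3K27ac, so low H3K9me3 values rest on few counts. Library 1 of D2-13B6 stood apart from the other repeats of its line in each mark. Against libraries 2 and 3 the chi-square per degree of freedom came to 3 and 3.28 in H3K9me3 and 2.82 and 2.81 in H3K27ac, and all other pairs of repeats gave 1.75 or less. Pairs of H3K27ac repeats that differed by less than the sampling noise (0.91 to 0.98) were counted as 1 sample, which left 2 samples per line. H3K27ac around the start sites of 8 pluripotency genes summed to between 822 and 1460 CPM (counts scaled to one common library total) in every library, and had no region at the lymphocyte genes Rag1, Ptprc or Dntt. Summed over 9 lymphocyte genes it was 10.6 to 11.9 CPM in the B6 and 14.9 to 17.4 in the D2 separate lines, which do not overlap. Only 2 of the 9 had a region there. In the repeated libraries, where 5 had one, it was 5.08 to 10.2. Over 4 fibroblast genes, of which Col3a1 had no region, it was at most 1.66 CPM in the separate lines, where only 1 gene had a region. In the repeats, where 3 had one, it was 7.08 to 12.6 in the B6 background and 9.51 to 20.4 in the D2 background. The sums of the 2 series thus rest on different genes and are not compared. The part of such cells in the differences below was not tested. Of the 8 pluripotency genes, Esrrb had no region in the separate lines and 0.106 to 1.36 CPM in the repeated libraries, within the range of the lymphocyte genes, and the other 7 had at least 46.1 CPM each.

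Summed over each locus, the D2 separate lines had more H3K9me3 than the B6 lines in Tra and Igh and less H3K27ac in all 3 loci. Tra H3K9me3 was 593, 598 and 563 CPM in the B6 lines and 847, 852 and 837 CPM in the D2 lines, 585 ± 18.9 against 846 ± 7.66 (SD, n = 3 lines each). The 2 groups did not overlap, and the log2 difference, D2 minus B6, was 0.53. Igh H3K9me3 was 1014, 1056 and 1002 CPM in B6 and 1262, 1185 and 1280 CPM in D2 (log2 difference 0.28), again without overlap. Igk H3K9me3 overlapped fully, with 1697, 1514 and 1550 CPM in B6 and 1428, 1565 and 1766 CPM in D2. H3K27ac sums were lower in D2, without overlap, by log2 differences of -0.21 in Tra, -0.49 in Igh and -0.28 in Igk. An exact two-sided permutation test gave p = 0.1 for each of the 5 sums that did not overlap, the smallest value that 3 against 3 lines allow (0.12 after Benjamini-Hochberg adjustment over 6 tests), and 1 for Igk H3K9me3.

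In the repeated libraries the Tra sums diverged more. H3K9me3 over Tra was 532 to 557 CPM in B6, 539 to 587 in B6-13D2, 1622 to 1745 in D2 and 1848 to 2321 in D2-13B6. H3K27ac over Tra was 296 to 311 CPM in B6, 282 to 287 in B6-13D2, 458 to 639 in D2 and 490 to 596 in D2-13B6. The backgrounds did not overlap in either mark. Within a background, the lines with different segments overlapped in H3K9me3 of the B6 background and H3K27ac of the D2 background, and did not in the other 2 cases. Many neighbouring Tra regions had nearly equal counts in the D2-background repeats (equal-count stretches, described below), and a sum takes each of them in full. Without those regions Tra H3K9me3 was 298 to 339 CPM in the B6-background and 390 to 479 in the D2-background repeats, and Tra H3K27ac was no longer higher in the D2 background, with 230 to 242 in B6, 203 to 213 in B6-13D2, 175 to 203 in D2 and 202 to 220 in D2-13B6. D2 5-5 is the same line in both series, yet its Tra H3K27ac lay below the B6 lines in the first and above B6 in the second, which used another antibody; without the stretches it lay below B6 in the second as well. Igh H3K9me3 ranged from 766 to 915 CPM in the B6-background lines and from 1019 to 1485 in the D2-background lines, while Igk ran the other way, from 1100 to 1147 against 802 to 1064. Without the stretches the Igh ranges overlapped, at 682 to 826 and 648 to 879 CPM. Igh H3K27ac overlapped with all regions, at 223 to 250 CPM in the B6 background and 194 to 272 in the D2 background, and without the stretches was lower in D2, at 208 to 229 against 138 to 188. The separate lines stayed apart without them, at 328 to 350 CPM in B6 and 373 to 386 in D2 for Tra H3K9me3, a log2 difference of 0.18 in place of 0.53.

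**Figure D1:**
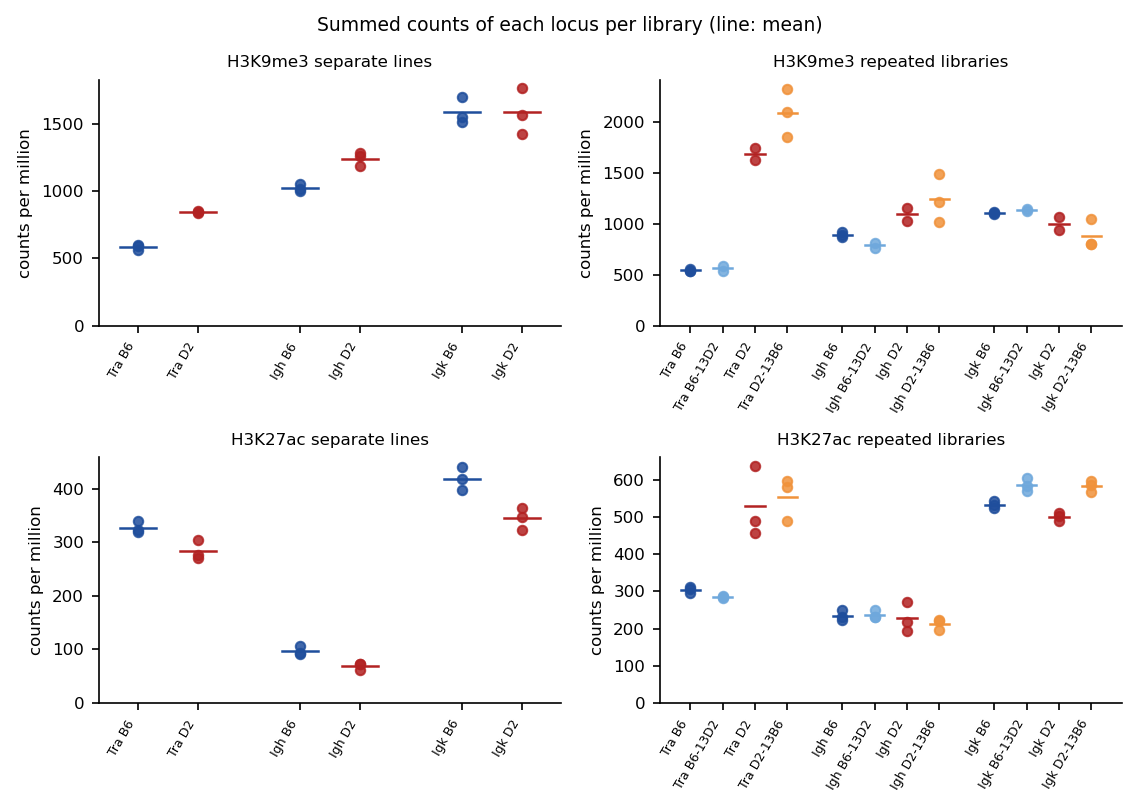
Summed counts of each locus in CPM, 1 point per library and a line for the mean of each genotype, for both marks and both series. Tra H3K9me3 is higher in every D2-background library than in every B6-background library, with 837 to 852 against 563 to 598 CPM in the separate lines and 1622 to 2321 against 532 to 587 in the repeated libraries, while Igk points of the separate lines overlap.

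More Tra regions were called higher than lower in H3K9me3 of D2 in both series, and most of the higher ones lie in the equal-count stretches described below. In the separate lines 45 of the 143 regions passed the filter on low counts, and 33 of them differed at an adjusted p below 0.05 (edgeR quasi-likelihood test), 24 with more and 9 with less in D2. The median log2 difference over those tested was 0.85. Inside the stretches 19 were higher and 3 lower (median 1.41), and outside them 5 were higher and 6 lower (median 0.27). The rule for stretches, given below, takes in regions with counts in the D2-background repeats, so this split is not independent of the direction. Across all 44797 regions tested, 34.7% were called, 17.3% higher and 17.4% lower. In the repeated libraries the contrast was the mean of D2 and D2-13B6 against the mean of B6 and B6-13D2. There, 88 of 105 Tra regions tested were called, 79 higher and 9 lower, with a median of 2.15, against 26.1% of all 86874 regions (11.4% higher, 14.7% lower). The median over all regions lay within 0.06 of 0 in every contrast. The filter bears on these counts: of the 105 regions tested, 49 reached 10 counts in D2-background libraries alone and 4 in B6-background libraries alone. The 52 that reached it on both sides gave 31 higher and 6 lower calls. In the separate lines 17 of 45 reached it in D2 lines alone and 4 in B6 lines alone, and the other 24 gave 8 higher and 5 lower calls.

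The intergenic region near Trav8n-2 shown above had the largest difference shared by both marks among Tra regions. Its H3K9me3 was 1.45, 0.761 and 0.737 CPM in the B6 libraries (CPM of single regions are scaled by TMM factors), 0.684 and 2.03 in B6-13D2, 34.0 and 47.3 in D2 and 43.2, 53.8 and 66.0 in D2-13B6. With every B6-background library at or under 3 counts, the D2 background was at least 22.7-fold higher (floor of 3 counts per library, adjusted p = 2.86e-33). Its H3K27ac was 0.301 and 0.224 CPM in B6, 0.372 and 0.0923 in B6-13D2, 6.95 and 9.32 in D2, and 7.62 and 7.82 in D2-13B6, a log2 difference of 4.78 ± 0.25 (SE). In the separate lines, where the region did not pass the filter, H3K9me3 was 2.11, 0 and 3.08 CPM in B6 and 11.5, 5.61 and 9.02 in D2. The second region by this rule, chr14:53255995-53256247 near Trav13n-2, was at least 17.7-fold higher in H3K9me3 and 4.33 ± 0.25 (log2) higher in H3K27ac.

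Counts in this part of Tra had a form that bears on every difference printed for it. In the D2-background repeated libraries neighbouring regions had almost the same count, whatever their width, over runs of up to 286 kb. For 2 neighbours with counts a and b, the squared difference divided by their sum has a median of 0.455 under counting noise alone; in the D2-background repeats its median over Tra was 0.14 to 0.17 for H3K9me3 and 0.26 to 0.65 for H3K27ac. In the B6-background repeats it was 3.95 to 6.55 and 5.26 to 11.29, and over all regions of the D2-background repeats 2.13 to 3.52 and 11.11 to 16.29. Neighbouring Tra regions thus differed by less than independent counts would in H3K9me3 of every D2-background repeat, and in H3K27ac of 4 of these 6 libraries, with 0.576 and 0.652 in libraries 2 and 1 of D2-13B6. In the D2 separate lines the H3K9me3 median over Tra was 1.19 to 2.5, above counting noise but below the 8.71 to 16.03 of the B6 lines and the 7.2 to 10.26 of all regions in the D2 lines. Igh behaved alike there, at 2.29 to 5.8 against 8.05 to 12.46 in B6. H3K27ac of the D2 lines was not flat over Tra, with 25.92 to 27.75 against 21.63 to 24.65 in B6.

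Runs of at least 5 such regions are called equal-count stretches here, a rule chosen after the data were seen and applied to the D2-background repeats themselves. Each pair of neighbours had to hold at least 20 counts in every one of these libraries, so regions low in D2 tend to fall outside. They held 65 Tra and 33 Igh regions in either mark, and none in Igk. Over all 248336 regions they covered 0.48% in H3K9me3 and 0.432% in H3K27ac, against 39.2% of Tra and 12.6% of Igh in H3K9me3. Many regions could not enter: 18577 pairs of neighbours reached the depth in H3K9me3 and 104108 in H3K27ac. The same rule applied to the B6-background repeats took 0.326% and 0.161% of all regions, and none in the 3 loci. The longest H3K9me3 stretch, chr14:53255995-53461141, spans 205 kb with 18 regions of 198 to 850 bases over Trav6-3, Trav7-4, Trav8n-2, Trav9n-4, Trav13n-3 and Trav13n-4. H3K9me3 counts of its regions were 34 to 45 in D2 library 1, 54 to 65 in D2 library 2 and 37 to 55 in D2-13B6 library 1, but 0 to 33 in B6 library 1. H3K27ac counts were 51 to 73 in D2 library 1 and 0 to 37 in B6 library 1. Its regions are therefore not independent observations in the D2-background repeats, and the part of this pattern in the differences between backgrounds was not tested. Inside stretches, 61 of 65 Tra regions were called higher in H3K9me3 and none lower; outside, 18 of 40 were higher and 9 lower, with a median of 0.56.

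**Figure D2:**
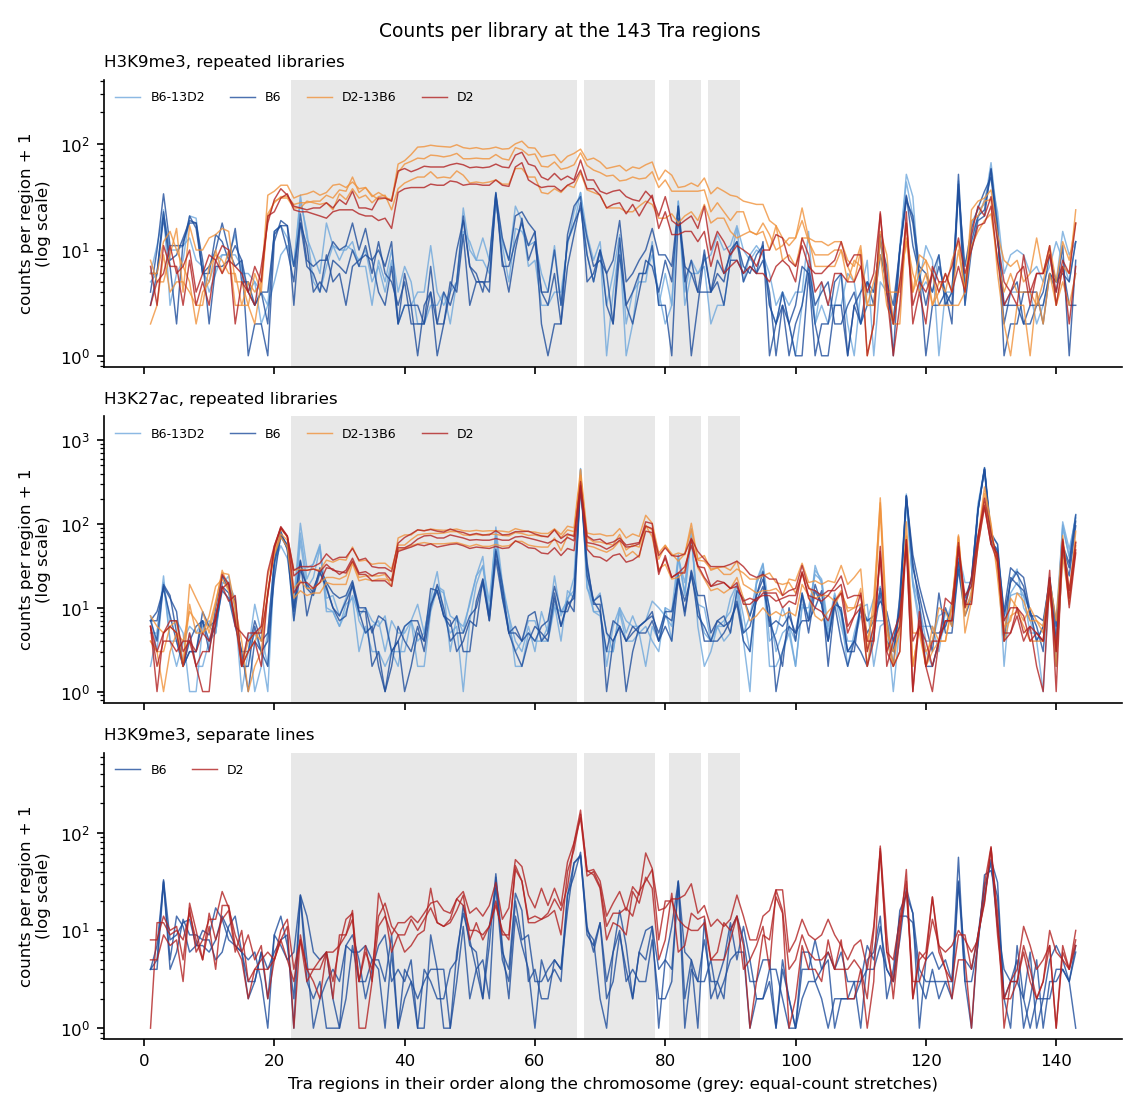
Counts plus 1 on a log axis for each of the 143 Tra regions in chromosome order, 1 line per library, with grey bands over equal-count stretches. In the repeated libraries the D2-background lines run nearly flat above the B6-background lines across the bands, in both marks, while in the separate lines the D2 lines go up and down from region to region.

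Outside the stretches, the Tra regions that were named differed in both directions. The region over the coding exon of Trav18, chr14:53830675-53832863, had H3K9me3 of 10.6, 14.1 and 6.15 CPM in the B6 lines and 51.8, 42.4 and 54.1 CPM in the D2 lines, a log2 difference of 2.25 ± 0.27 (adjusted p = 6.75e-09). The groups were far apart. In the repeated libraries H3K9me3 was 18.8 and 17.1 CPM in D2 but 7.2, 8.96 and 9.83 in D2-13B6, close to the 5.81 to 9.89 of B6. An intronic region of the predicted gene Gm43647, chr14:53936706-53937112, went the other way: H3K9me3 was 14.8, 12 and 14.4 CPM in B6 and 1.65, 0.624 and 0.752 in D2, at least 6.23-fold lower. It was lower in the D2 background in H3K27ac too, by -1.24 ± 0.14 in the separate lines and -3.94 ± 0.36 in the repeated libraries (log2).

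Further Tra regions were named for their change in the separate lines. H3K9me3 near Trav13-3, chr14:53726229-53726553, was 3.17, 0 and 0.0 CPM in the B6 lines and 17.3, 15.6 and 18.8 in the D2 lines, at least 5.43-fold higher. Near Trav5-2, chr14:53615458-53615822, which lies inside a stretch, the D2 lines were at least 4.79-fold higher. In H3K27ac, the region near Trav12d-2, chr14:52917880-52918863, was 0.514 to 1.01 CPM in B6 and 2.94 to 3.72 in D2, and the region near Traj61, chr14:54151855-54152646, was lower in D2 by -1.29 ± 0.26.

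H3K27ac of Tra in the separate lines was called in 34 of 46 regions, 14 higher and 20 lower in D2 (median log2 difference -0.24), against 49.3% of all 96291 regions tested (24.3% higher, 25% lower). In the repeated libraries 99 of 123 were called, 85 higher and 14 lower (median 1.84), against 38.1% of 192158 (20.3% higher, 17.8% lower). Inside the stretches 60 were higher and 2 lower, and outside them 25 of 58 were higher and 12 lower (median 0.25). How many of these regions passed the filter through the D2 background alone was not counted in H3K27ac, and such regions favour a higher call. The same holds for the H3K27ac calls of the repeats in Igh and over V genes below. The region over Trav12-3, chr14:53618901-53622860, was the most raised in the separate lines, at 2.51, 3.65 and 3.36 CPM in B6 and 22.9, 17.8 and 18.8 in D2, a log2 difference of 2.64 ± 0.13. The region over the coding exon of Trav6-3, chr14:53427059-53428794, was the most lowered, at 8.33, 6.42 and 7.41 CPM in B6 and 2.57, 1.43 and 2.02 in D2 (-1.90 ± 0.17, adjusted p = 1.39e-13). Inside the same interval the repeated libraries gave the opposite sign: chr14:53427652-53428135 had 2.11 and 2.13 CPM in B6 and 6.34 and 8.30 in D2, and this region lies in an equal-count stretch. H3K9me3 near Trav7-3, chr14:53439255-53440104, likewise reversed, with D2 lines at 15.6, 18.7 and 12.8 CPM against 35.9, 28.3 and 37.9 in B6 (-1.10 ± 0.24), but D2 repeats at 40.3 and 49.6 against 24.0, 24.3 and 25.1 (1.16 ± 0.17 for the backgrounds). D2 5-5 is the second of these D2 lines and the line of the D2 repeats.

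By gene class, the called regions over Tra V genes were all higher in H3K9me3. The part of the filter in this was not tested. Of 38 regions over Tra V genes, 30 passed the filter in the repeated libraries, and 25 were higher and none lower in the D2 background (median 2.25; 22 of the 38 lie in stretches). Of the 30, 13 reached 10 counts in D2-background libraries alone, and the other 17 gave 12 higher calls and none lower. In the separate lines 11 of 16 were higher and none lower (median 1.53), and 9 of the 16 reached 10 counts in D2 lines alone. H3K27ac over V genes was higher in 28 of the 33 regions that passed the filter in the repeated libraries and lower in 1, with the same 22 regions of the class in stretches, but split into 6 higher and 5 lower of 15 in the separate lines. The shares over all regions, given above, were 20.3% higher and 17.8% lower for H3K27ac and 11.4% and 14.7% for H3K9me3 in the repeats. At the D, J and C end the region over Trdj2 was the only one with enough H3K9me3 counts for a test, and it was lower in D2 (-1.46 in the separate lines, -0.75 in the repeated libraries). H3K27ac in the repeats was lower over Trdj2 (-0.42) and over 1 of the 2 Trac regions (-1.39), and did not pass the test over the other (-0.06) or over Traj29 (0.06).

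Igh regions differed in both directions, with more higher than lower calls in H3K9me3 of both series and in H3K27ac of the repeats, and more lower than higher calls in H3K27ac of the separate lines. H3K9me3 was called in 44 of 82 regions of the separate lines, 30 higher and 14 lower (median 0.29), and in 113 of 140 of the repeated libraries, 76 higher and 37 lower (median 1.02). H3K27ac was called in 19 of 24 regions of the separate lines, 6 higher and 13 lower (median -0.52), and in 107 of 150 of the repeated libraries, 81 higher and 26 lower (median 0.90). Of these H3K27ac calls in the repeats, 31 higher and 1 lower lay inside stretches (median 2.55), and the 117 regions outside gave 50 higher and 25 lower (median 0.53). Over all regions of the separate lines 34.7% were called in H3K9me3 and 49.3% in H3K27ac, and over all regions of the repeats 26.1% and 38.1%. Equal-count stretches held 31 of the 76 H3K9me3 regions that were higher; outside them 45 of 107 regions were higher and 37 lower (median 0.28). In the separate lines the regions outside gave 18 higher and 14 lower calls of 65 (median 0.06). Of the 82 regions tested there, 28 reached 10 counts in D2 lines alone and 7 in B6 lines alone, and the 47 that did on both sides gave 4 higher and 7 lower calls. Of the 140 regions tested in the repeats, 70 reached 10 counts in D2-background libraries alone and 23 in B6-background libraries alone, and the 47 that did on both sides gave 11 higher and 16 lower calls.

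The region over Ighv1-44, chr12:114963346-114965351, lost both marks in D2. H3K9me3 was 88.7, 85.9 and 69.7 CPM in the B6 lines and 9.05, 5.61 and 7.52 in the D2 lines, a log2 difference of -3.47 ± 0.24 (adjusted p = 9.75e-15). In the repeated libraries it was 53.0, 46.4 and 48.6 CPM in B6, 34.9 and 27.1 in B6-13D2, 0.895 and 2.33 in D2, and 0.899, 0 and 0 in D2-13B6, at least 17.4-fold lower in the D2 background. H3K27ac was 8.33, 8.18 and 9.24 CPM in the B6 lines and 1.99, 1.65 and 1.09 in the D2 lines (-2.45 ± 0.17), and -6.21 ± 0.23 lower in the D2-background repeats. No library of D2 overlapped a library of B6 in either mark.

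Further along Igh, near Ighv1-48, chr12:115044712-115045221, H3K9me3 was 28.5, 27.2 and 24.6 CPM in the B6 lines and 0.823, 6.24 and 3.01 in D2 (-2.86 ± 0.37), at least 6.67-fold lower in the D2-background repeats, where H3K27ac was -3.14 ± 0.32 lower. Near Ighv12-3, chr12:114378506-114379601, the D2-background repeats were at least 3.67-fold lower in H3K9me3 and at least 4.57-fold lower in H3K27ac. In the repeated libraries those 2 regions repeat the pattern of Ighv1-44 at lower levels. Neither overlapped an H3K27ac region of the separate lines. In the other direction, H3K9me3 near Ighv1-68, chr12:115607952-115608545, was 4.23, 2.18 and 4.1 CPM in the B6 lines and 29.6, 30.6 and 32.3 in D2 (3.09 ± 0.35), and 1.73 ± 0.31 higher in the repeats. H3K9me3 near Ighv8-5, chr12:115064357-115064719, was 24.7, 19.3 and 17.3 CPM in the D2 lines, at least 6.45-fold above B6, but at most 3.88 CPM in the D2-background repeats. H3K27ac in the separate lines fell by 3.17 ± 0.30 near Ighv5-18, chr12:113871859-113872867, from 3.36 to 3.46 CPM in B6 to 0.288 to 0.441 in D2, and was 2.17 ± 0.25 higher near Ighv1-34 and 1.99 ± 0.28 higher near Ighv8-2.

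**Figure D3:**
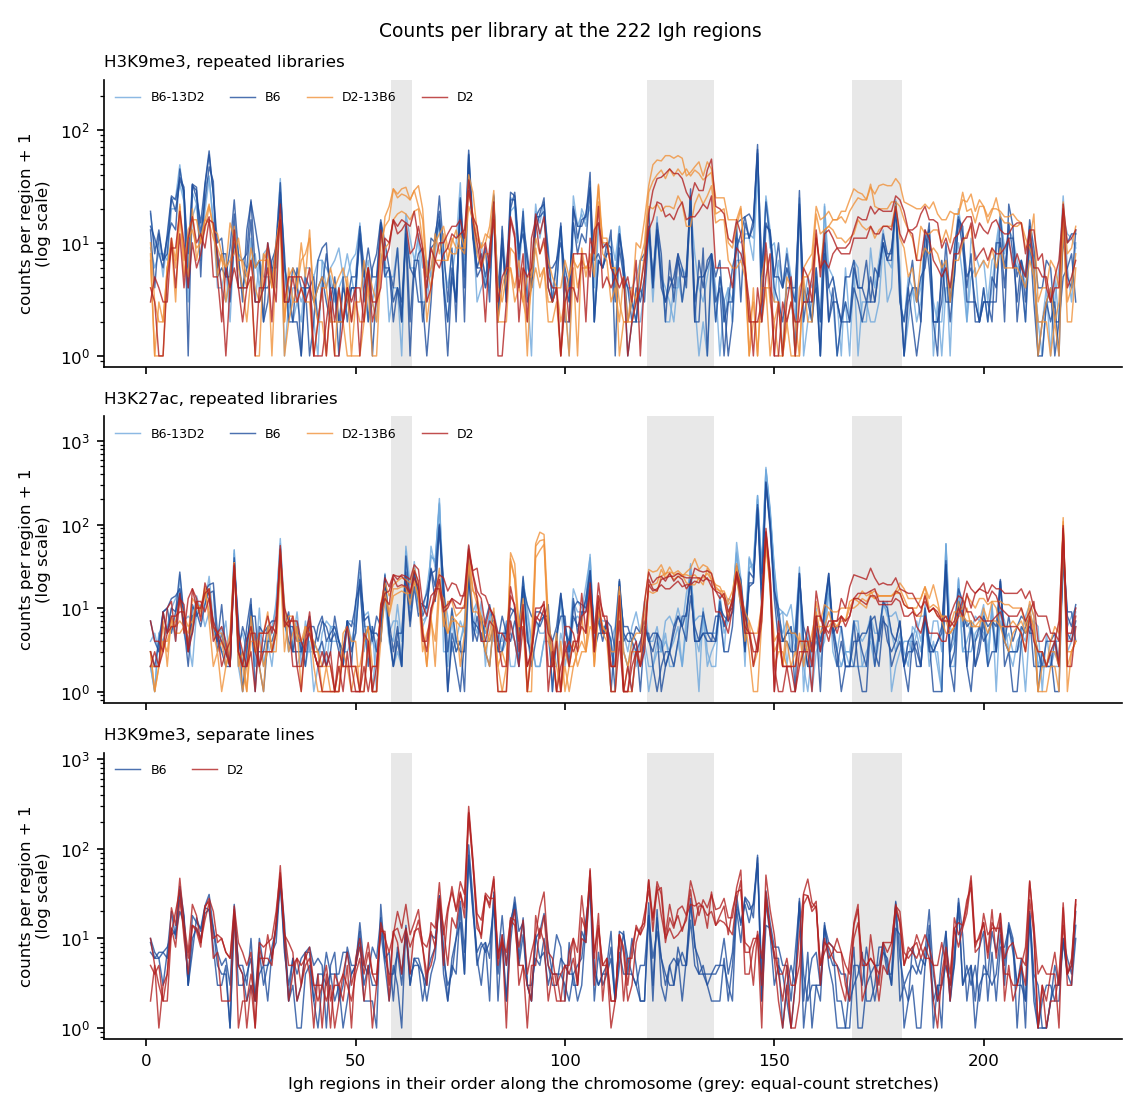
Counts plus 1 on a log axis for each of the 222 Igh regions in chromosome order, 1 line per library, with grey bands over equal-count stretches. D2-background lines lie above the B6-background lines within the bands, and drop below them at single regions outside, such as the one over Ighv1-44, where D2-13B6 libraries reach 0.

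Among 42 regions over Igh V genes, 16 passed the H3K9me3 filter in the repeated libraries, 11 of them higher and 4 lower in the D2 background, against 11.4% and 14.7% of all regions. The filter bears on this split: 11 of the 16 reached 10 counts in D2-background libraries alone, 4 in B6-background libraries alone and 1 on both sides. In H3K27ac of the repeats 9 of 17 were higher and 4 lower, against 20.3% and 17.8%. In H3K9me3 of the separate lines 5 of 8 were higher and none lower, and 5 of the 8 reached 10 counts in D2 lines alone. Both V gene regions with H3K27ac in the separate lines were lower in D2. Regions over the constant genes Ighm, Ighg3 and Ighg2b had too few counts for a test in either mark.

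In Igk fewer H3K9me3 regions were called than over the whole genome, and no direction prevailed in both series. H3K9me3 was called in 19 of 90 regions in the separate lines, 11 higher and 8 lower (median 0.02), and in 21 of 98 in the repeated libraries, 5 higher and 16 lower (median -0.28). Those shares, 21.1% and 21.4%, lie below the 34.7% and 26.1% of all regions. H3K27ac was called in 37 of 72 regions in the separate lines, 8 higher and 29 lower (median -0.36), and in 42 of 125 in the repeated libraries, 21 each way (median 0.01). Those shares, 51.4% and 33.6%, lie near the 49.3% and 38.1% of all regions. No Igk region lay in an equal-count stretch, and 7 of the 169 regions overlapped a V gene.

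Single Igk regions differed between the separate lines in either mark. Near Igkv14-126, chr6:67891223-67891876, H3K9me3 was 33.8, 34.8 and 40.0 CPM in the B6 lines and 20.6, 18.1 and 18.0 in the D2 lines (-0.94 ± 0.23), and -1.99 ± 0.29 lower in the D2-background repeats, while H3K27ac differed by 0.22 (adjusted p = 0.275) there. Near Igkv4-61, chr6:69418047-69418396, it was 4.23, 2.18 and 2.05 CPM in B6 and 11.5, 9.36 and 10.5 in D2 (1.84 ± 0.49), with 0.16 ± 0.41 (adjusted p = 0.815) in the repeats. An intergenic region, chr6:68369511-68370230, was 1.52 ± 0.30 higher in the D2 lines, but -0.24 ± 0.27 (adjusted p = 0.558) in the repeats. Near Igkv6-13, chr6:70454299-70454652, the log2 difference was -1.08 ± 0.33 in the lines and -0.71 ± 0.37 (adjusted p = 0.15) in the repeats. In H3K27ac the largest drop was near Igkv4-58, chr6:69493567-69494340 (-2.63 ± 0.35), followed by -2.24 ± 0.38 near Igkv8-22. The largest rise lay at chr6:67692075-67692378, from 0.252 to 0.38 CPM in B6 to 1.32 to 1.56 in D2 (2.18 ± 0.42).

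Set side by side in the repeated libraries, more regions of Tra and Igh were called in both marks with the same direction than with opposite directions, which was not so in Igk. Many of these regions passed the H3K9me3 filter through the D2 background alone (49 of 105 in Tra and 70 of 140 in Igh, as given above), which favours a higher call, so the counts are a description of the regions that passed. With only regions that average 20 counts or more, shared calls over the 3 loci fell from 165 to 48. Of 102 Tra regions tested in both marks, 79 were called in both with the same direction, 75 higher and 4 lower in the D2 background, and 3 with opposite directions. In Igh it was 82 of 132 (66 higher, 16 lower) against 9, and in Igk 4 of 82 (2 each way) against 6. Across all 78531 regions tested in both marks, 8.14% were called with the same direction (4.4% both higher, 3.73% both lower) and 7.39% with opposite directions. Spearman's rho between the log2 differences of the 2 marks, which share the region but no library, was 0.76 over Tra regions, 0.72 over Igh, -0.09 over Igk and 0.01 over all regions. The Tra and Igh values include regions in equal-count stretches, which are not independent observations, and rho was not computed without them. Outside the equal-count stretches 21 of 37 Tra regions and 52 of 99 Igh regions kept a shared direction, against 2 and 8 opposite ones.

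**Figure D4:**
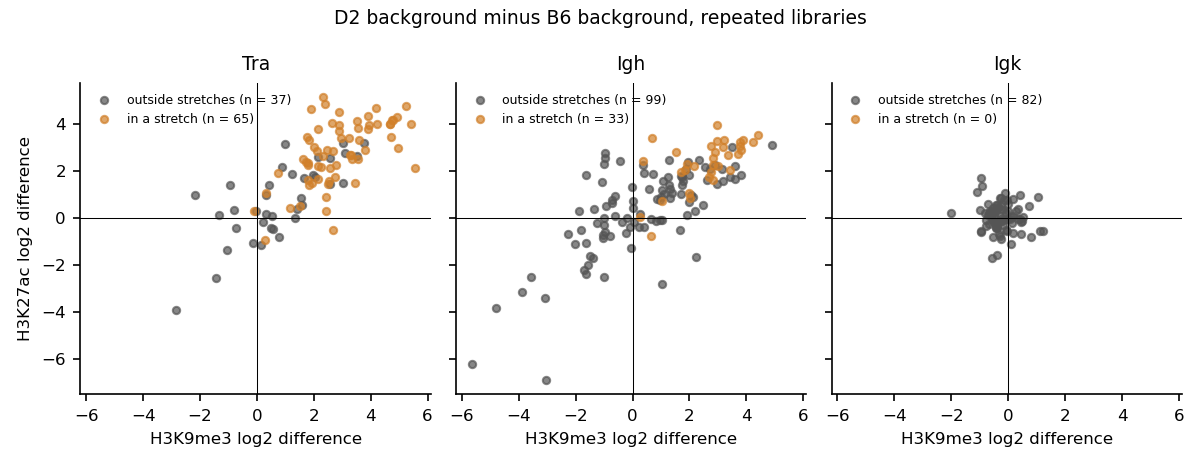
Log2 difference of H3K9me3 (x axis) and H3K27ac (y axis) between the D2 and B6 backgrounds in the repeated libraries, 1 point per region tested in both marks, with regions in equal-count stretches in orange. Tra and Igh points lie along the diagonal, with the orange points at its upper end, and Igk points gather around 0.

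The separate lines gave far fewer shared calls. H3K9me3 regions were matched there to the H3K27ac region of largest overlap. In Tra 7 of 16 were called with the same direction (4 higher, 3 lower) and 4 with opposite directions. Of these 4, 2 near Trav3-2 overlap the same H3K27ac region, whose log2 difference was only -0.21. In Igh 2 of 13 were called, both lower in both marks, and in Igk 5 of 49, all in opposite directions. Over all 23646 matched regions 9.9% were called with the same direction (4.21% both higher, 5.69% both lower) and 19.2% with opposite directions. Spearman's rho between the marks was 0.44 over the matched Tra, 0.38 over the Igh and -0.34 over the Igk regions, and -0.21 over all. The 4 shared Tra rises lie at Trav13-1, near Trav4-3 and at Trav12-3, where 2 H3K9me3 regions overlap 1 H3K27ac region, and all 4 are in intervals that form equal-count stretches in the repeats. At Trav12-3, chr14:53620828-53621903, H3K9me3 was 7.39, 10.9 and 10.3 CPM in the B6 lines and 33.7, 26.2 and 19.5 in the D2 lines (1.46), beside the H3K27ac rise of 2.64 given above. The 5 shared drops lie outside the stretches, whose rule favours regions with counts in D2.

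The regions that went opposite ways in the 2 marks included one beside the T cell receptor delta genes. At chr14:54064462-54065951, near Trdv4, H3K9me3 was 58.1, 32.6 and 31.8 CPM in the B6 lines and 6.58, 5.61 and 3.01 in the D2 lines (-2.99 ± 0.32, adjusted p = 7.76e-10), while H3K27ac was 3.37, 3.34 and 3.86 CPM in B6 and 9.76, 9.81 and 8.07 in D2 (1.39 ± 0.14). The repeated libraries gave the same pair of directions, -2.17 ± 0.24 for H3K9me3 and 1.00 ± 0.15 for H3K27ac. Neither mark overlapped between the strains in either series. At chr6:69917523-69918631 in Igk the differences were -1.09 ± 0.21 and 1.12 ± 0.13 in the repeats, while in the separate lines H3K27ac was 0.89 ± 0.13 higher in D2 and H3K9me3 did not pass the test (-0.18 ± 0.18, adjusted p = 0.475). Near Ighv1-50, chr12:115109563-115110368, H3K9me3 was 2.22 ± 0.44 higher and H3K27ac -1.67 ± 0.27 lower in the repeats. Near Trav3-1, chr14:52592311-52592591, the pair was -0.94 ± 0.29 and 1.43 ± 0.51, with H3K27ac at 1.83 CPM or less. The Trav3-1 pair was called for D2-13B6 against B6 only: D2 against B6-13D2 gave -0.70 (adjusted p = 0.392) and 0.44 (adjusted p = 0.731), and H3K9me3 in the separate lines was 0.39 (adjusted p = 0.444).

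The shared Igk calls were small. Near Igkv14-134-1, chr6:67694072-67695094, both marks were higher in the D2 background (1.05 ± 0.36 and 0.90 ± 0.25), and near Igkv4-68, chr6:69298492-69299254, both were lower (-0.97 ± 0.24 and -0.61 ± 0.15). The H3K27ac difference near Igkv4-68 passed the test for D2 against B6-13D2 (-1.02) and not for D2-13B6 against B6 (-0.20, adjusted p = 0.514), nor in the separate lines (-0.10, adjusted p = 0.611).

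The background difference was also fitted for each chromosome 13 segment by itself. D2 against B6-13D2 and D2-13B6 against B6 share no library, and the first pair both carry the D2 segment, the second the B6 segment. In H3K9me3, 72 and 91 of 105 Tra regions were called in them, 71 in both and all 71 with the same sign; over all regions 8.22% and 20.9% were called. In H3K27ac 93 and 95 of 123 were called, 87 in both and 86 of these with the same sign, against 26.1% and 30.3% of all regions. The 49 Tra regions that passed the filter through the D2 background alone are among those tested, so a shared higher sign was favoured for them. Most Tra calls lay in the stretches and most Igh calls outside, where more Igh regions were tested. For D2 against B6-13D2 in H3K9me3, 57 of 65 Tra regions were called inside and 15 of 40 outside (11 higher, 4 lower). In Igh it was 25 of 33 inside and 32 of 107 outside. Igh gave 57, 104 and 56 regions in H3K9me3 and 91, 80 and 67 in H3K27ac. Igk gave 5, 18 and 4, and 33, 45 and 18. Between the 2 series, 28 of 44 Tra regions tested in both were called in H3K9me3 in both, 27 with the same direction; in Igh it was 32 of 76, 31 with the same direction, and in Igk 6 of 85, all the same. The share called in both with the same direction over all regions was 16.4%.

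Lines of 1 background that differ in the chromosome 13 segment differed at few regions of these loci. Each genotype here is 1 line, so the segment cannot be told apart from other differences between 2 lines. In the B6 background (B6-13D2 minus B6), H3K9me3 was called in 2 of 343 member regions (0.583%), both lower and both in Igh, against 1.69% of all regions (1.23% higher, 0.458% lower). In the D2 background (D2 minus D2-13B6) it was called in 10 (2.92%), against 2.2% of all regions (1.81% higher, 0.395% lower). Of these, 7 were lower in Tra, 6.67% of the Tra regions tested. Those 7 regions lie between chr14:53637654 and 53710006, from Trav13-2 to Trav6-7-dv9, with uncalled regions among them, and 5 of the 7 are in equal-count stretches. Next to Trav9-4, chr14:53675849-53676030, H3K9me3 was 5.37 and 6.98 CPM in D2 and 15.3, 16.4 and 23.2 in D2-13B6 (-1.56 ± 0.40, adjusted p = 0.0102). Without library 1 of D2-13B6 the counts were 5 and 22 in place of 2 and 10, and without D2 library 1 the second count was 2. The second count was also 2 with DESeq2 in place of edgeR, and 2 with the replicate number as a block.

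H3K27ac was called in 37 of 398 member regions (9.3%) in the B6 background and in 31 (7.79%) in the D2 background. Over all regions it was 13% (7.6% higher, 5.4% lower) and 6.67% (1.44% higher, 5.24% lower). Igk had the highest shares of the 3 loci, 16% and 17.6%. By locus, the B6-background calls were 7 higher and 3 lower in Tra, 2 and 5 in Igh and 13 and 7 in Igk. The D2-background calls were 2 lower in Tra, 2 higher and 5 lower in Igh, and 3 higher and 19 lower in Igk. Without library 1 of D2-13B6 the B6-background count was 62, and without B6 library 3 it was 24; without D2 library 2 the D2-background count was 16.

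The largest segment difference was at the Igk tandem repeat printed above, chr6:70476838-70478052, where the D2-13B6 line stood alone in both marks. H3K9me3 was 29.8, 31.2 and 39.1 CPM in B6, 35.6 and 36.6 in B6-13D2, 34.0 and 31.8 in D2, but 8.09, 9.71 and 11.2 in D2-13B6 (D2 minus D2-13B6 1.74 ± 0.30, adjusted p = 9.81e-06). H3K27ac was 3.66 and 3.02 CPM in B6, 0.698 and 0.831 in B6-13D2, 1.06 and 1.36 in D2, but 25.7 and 23.1 in D2-13B6 (-4.38 ± 0.23, adjusted p = 3.04e-20). The 2 lines that carry the D2 segment were thus the lowest in H3K27ac, and the B6-background difference, B6-13D2 minus B6, was -2.19 ± 0.30. In the separate lines H3K9me3 did not pass the test there (-0.21, adjusted p = 0.43). Repeats cover 77.2% of this region, and 59.5% of its 75-base windows are unique in the reference; the part of reads from other copies in these values was not tested.

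Further segment differences were found in all 3 loci, some of them in repeats. Near Ighv8-1, chr12:114330877-114331076, fully masked as repeats, H3K27ac was 0.652 and 0.672 CPM in B6, 0.0931 and 0.369 in B6-13D2, 0.945 and 0.682 in D2 and 8.13 and 6.16 in D2-13B6 (-3.03 ± 0.31). The region near Ighv3-4, chr12:114241471-114241977, was lower with the D2 segment in both backgrounds (-1.84 ± 0.57 and -1.73 ± 0.36). Near Igkv4-58, chr6:69493512-69494383, H3K27ac was 3.01 and 3.70 CPM in B6, 0.838 and 0.554 in B6-13D2, 1.06 and 1.14 in D2 and 3.05 and 3.35 in D2-13B6, lower with the D2 segment in both backgrounds by -2.13 ± 0.32 and -1.54 ± 0.31. Within each background the line with the D2 segment was below the line with the B6 segment at all 3 of these regions. The called Igh regions of the D2 background had a median repeat share of 100%, against 24% of the Igh regions tested, in H3K27ac. The other loci did not all follow: the 22 called Igk regions had 47.8% against 68.2% in that mark, the 2 called Tra regions 59.3% against 12.5%, and the 7 Tra regions called in H3K9me3 6.62% against 15.9%. The part of repeat copies in these differences was not tested. Near Igkv4-61, chr6:69418047-69418396, H3K27ac fell by 2.72 ± 0.49 in B6-13D2, and near the gene Gm36448 in Tra, chr14:52533354-52533733, by 1.51 ± 0.52.

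Trav18 was the Tra region with the largest segment difference. Its H3K27ac was 1.35 and 1.57 CPM in B6, 0.512 and 1.57 in B6-13D2, 5.5 and 4.43 in D2 and 20.7 and 18.3 in D2-13B6, so D2 was lower than D2-13B6 by -1.93 ± 0.20 (adjusted p = 2.46e-10). H3K9me3 ran the other way, with D2 above D2-13B6 by 1.02, which did not pass the test (adjusted p = 0.123). H3K9me3 at Gm25747, chr12:113423671-113425077, fell by 1.43 ± 0.39 in B6-13D2, and an intergenic Igk region, chr6:68369511-68370230, was 1.99 ± 0.40 higher in D2 than in D2-13B6 in H3K9me3. Beyond the V genes, H3K27ac over Trac, chr14:54222042-54223122, was 5.31 and 4.82 CPM in B6 and 8.57 and 9.69 in B6-13D2 (0.82 ± 0.20).

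**Figure D5:**
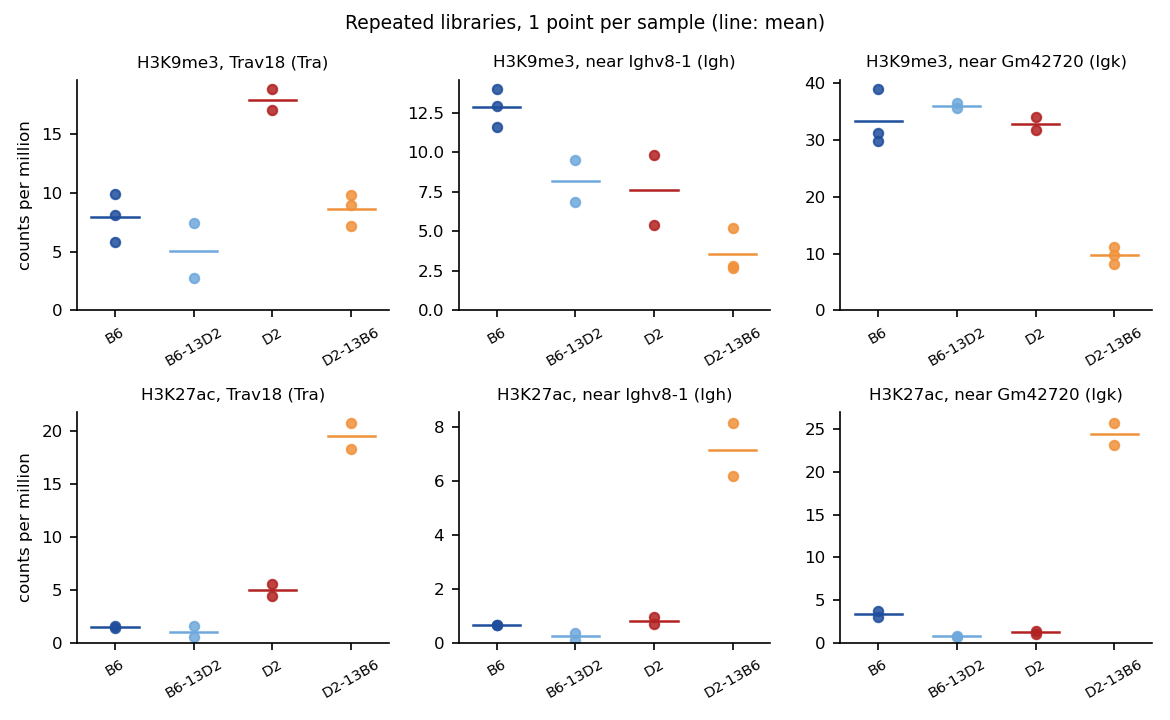
CPM in the repeated libraries at Trav18, near Ighv8-1 and near Gm42720, 1 point per sample and a line for the mean of each line, H3K9me3 above and H3K27ac below. In all 3 places D2-13B6 has the highest H3K27ac, 18.3 CPM or more at Trav18, 6.16 or more near Ighv8-1 and 23.1 or more near Gm42720.

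Of the 22 Igk calls in the D2 background, 9 lie at the low-coordinate end of the locus, from chr6:67510630 to 67576164 over Gm42889 and Igkv2-137, with 2 uncalled regions among them. Each was lower in H3K27ac in D2 than in D2-13B6, by -1.26 to -1.82, at levels of at most 3.56 CPM. Library 1 of D2-13B6 was the highest sample throughout, for example 3.05 CPM at Igkv2-137 against 1.5 in the sum of libraries 2 and 3.

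The difference between the effects of the segment in the 2 backgrounds (interaction) was called in 1 H3K9me3 region of 343, against 0.389% of all regions, and in 18 H3K27ac regions of 398, against 5.3%. Of those 18, 14 were in Igk.

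In make-up the loci differed as well. Repeats covered a median of 12.8% of a Tra region, 14.7% of an Igh region and 67.7% of an Igk region, and the median share of unique 75-base windows was 90.1%, 99.8% and 90.7%. Tra regions in equal-count stretches had a median repeat share of 11.4% and 84% unique windows. Masked repeats were thus not more common there than in Tra as a whole, but the regions were less unique. Of those in stretches 56.9% had at least 80% unique windows, against 65% of all Tra regions. Regions overlapped 34 of 115 V genes in Tra and 41 of 115 in Igh, but 7 of 102 in Igk, where regions lay mostly between genes.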

How the data were processed

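The files used here are raw count tables: per the file headers, the authors deposited counts of reads per region without duplicates, 1 column per library and 1 row per region. Per the submitters' processing notes, Trimmomatic 0.39, HISAT2 2.2.1, MACS 1.4.2, bedtools 2.9.2 and edgeR were used with build mm10, without a stated role or order; how multiply mapped or gapped reads were counted is not given in the sources used here, and reads were 75 bp. HISAT2 is able, as background, to place 1 read across a gap, and the mm10 reference is the B6 strain; the part of either in the values was not tested. Of the deposited columns, 2 matched no sample and 1 was empty; none of these was used. Region starts were read as counted from 0 and are printed from 1.

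Each table was fitted as a whole with edgeR 4.0.16 in R 4.3.3 (limma 3.58.1): TMM scaling, filterByExpr (minimum count 10, total 15) and the quasi-likelihood F-test, with Benjamini-Hochberg adjustment over all regions tested and calls at an adjusted p below 0.05. Members were counted afterwards. The 3 B6 and 3 D2 separate lines of a mark were compared without covariates; the repeated libraries of a mark were fitted together, with libraries that differed by less than sampling noise summed. Region names come from GENCODE M21, and repeats and 75-base windows from the GRCm38 reference. The calculation was tested on simulated data. Of the regions counted, 1 Igk region is not reported here on its own, and 1 marker gene is not named. Counts limit precision, and where all libraries of 1 side held 3 counts or fewer, a fold is a lower bound computed from 3 counts per library, which covers counting error only.

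Members, lists and tests were chosen with earlier results of these data known. Named regions are, per locus: in the separate lines, the 2 called regions with the largest change in each mark and direction whose lines do not overlap; in the repeated libraries, the 2 shared and 2 opposite differences with the largest smaller change, and the largest called segment difference of each mark and background. Trav7-3, the repeats at Trav6-3, Trac and the groups of 7 and 9 called regions were added after their values were seen. Same-numbered libraries did not deviate together (correlations of -0.06 to 0.16 in the H3K9me3 repeats), so numbers were not treated as pairs. Alternatives were DESeq2 1.42.0, other filters and scalings, a replicate block, only regions with at least 80% unique windows, and leaving out each library; leaving out equal-count stretches, and each library of 1 mark in the counts over both marks, was added after seeing the data.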

Additional observations from a re-analysis of the deposited data

Results flagged for a closer look

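In 18 regions, 1 of them in both marks, the difference between the line with the D2 and the line with the B6 segment of chromosome 13 was not the same in the B6 and the D2 background by the test of the difference itself (edgeR, adjusted p below 0.05 over all regions). The values below are log2 differences in the B6 background minus those in the D2 background, in the repeated libraries.

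The intergenic Igk region near Gm42720 differed in both marks, by -1.62 ± 0.38 in H3K9me3 (adjusted p = 0.0171) and 2.18 ± 0.45 in H3K27ac (adjusted p = 0.00144). In H3K9me3 the difference comes from the D2-13B6 line alone, at 8.09 to 11.2 CPM where every library of the other 3 lines had 29.8 to 39.1.

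The other differences were in H3K27ac. Of these, 2 neighbouring Igk regions by Igkv12-89 stood out: the intergenic one gave 1.78 ± 0.26 (adjusted p = 9.37e-06), from 5.16 and 6.72 CPM in B6, 14.1 and 12.6 in B6-13D2, 6.28 and 6.71 in D2 and 9.99 and 8.84 in D2-13B6, and the one over the coding exon gave 1.84 ± 0.57 at levels of at most 1.66 CPM. At the intergenic region, B6-13D2 minus B6 was 1.22 (adjusted p = 1.64e-06), and D2 minus D2-13B6 was -0.56 (adjusted p = 0.057). In Tra, the region near Trav15-2-dv6-2 gave 1.75 ± 0.29, with 2.51 and 2.91 CPM in B6 and 7.26 and 6.28 in B6-13D2, the region near Trav3-2 gave 0.79 and the region near Trav16d-dv11 gave -1.5. In Igh, the region near Gm44782 gave -2.17 ± 0.56, at levels of at most 2.24 CPM.

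Other Igk regions had these values: 1.4 near Gm42889, 0.97 near Igkv14-130, -1.15 near Gm9729, 1.05 and 1 in 2 regions near Igkv9-124, 0.92 near Gm42924, 0.67 near Igkv1-88, 1.07 near Gm43220, 0.87 near Igkv8-30 and 1.12 near Igkv3-12. Of the 14 Igk regions in H3K27ac, 13 had a positive difference; over all regions 7546 of the 10176 called were positive and 2630 negative. Library 1 of D2-13B6, which stood apart from its repeats, enters all of these; without it 33 H3K27ac regions were called in place of 18, and without D2 library 2 it was 8.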

How the results depend on the processing

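Counts of called regions changed with the filter, unique windows, the equal-count stretches, the test and single libraries. For H3K9me3 in the separate lines the 96 calls became 62 without stretches and 34 when only regions averaging 20 counts or more were tested (the mean filter). For H3K27ac there, 90 became 48 with only uniquely mappable regions. Between backgrounds, 222 H3K9me3 calls became 130 without stretches and 63 with the mean filter, and 248 H3K27ac calls became 153 with unique regions, 154 without stretches, 145 with libraries summed per line and 142 with the mean filter. For B6-13D2 minus B6 in H3K9me3, 2 calls became 0 with DESeq2 and 0 with no filter; for D2 minus D2-13B6, 10 became 4 (unique), 5 (without stretches), 2 (DESeq2), 3 (mean filter) and 4 (no filter); the interaction call became 0 with unique regions, DESeq2 or no filter. In H3K27ac the 37 calls of B6-13D2 minus B6 became 22 (unique), 15 (DESeq2) and 57 (all 12 libraries separate), the 31 of D2 minus D2-13B6 16 and 10 (unique, DESeq2), and the 18 interaction calls 10 and 10. Calls shared by both marks in the separate lines went from 9 to 5 with a log2 change of at least 1 in both, 4 with the mean filter and 5 without stretches, and opposite ones from 9 to 3 with the log2 limit; in the repeated libraries shared calls went from 165 to 48 (mean filter) and 77 (without stretches), opposite ones from 18 to 5 (log2 limit) and 6 (mean filter). With TMM factors the H3K9me3 sums changed from 0.53 to 0.45 in Tra and from 0.28 to 0.19 in Igh, and without stretches to 0.18 and 0.15. The causes were not tested, beyond the fewer regions that a stricter filter leaves.

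Leaving out 1 library at a time gave 82 to 104 and 73 to 93 calls in the separate lines (H3K9me3, H3K27ac). In the repeats it gave 201 to 240, 0 to 5, 2 to 22 and 0 to 3 for background, the segment in B6, the segment in D2 and interaction in H3K9me3, and 224 to 255, 24 to 62, 16 to 34 and 8 to 33 in H3K27ac. Shared and opposite calls were 8 to 12 and 6 to 11 in the lines, and 148 to 168 and 14 to 23 in the repeats. Locus sums were 0.51 to 0.55, 0.26 to 0.31 and -0.08 to 0.07 (H3K9me3) and -0.26 to -0.17, -0.54 to -0.42 and -0.32 to -0.23 (H3K27ac). Leaving out library 1 of D2-13B6 gave the highest counts for the segment in B6 and for interaction in both marks. It also gave the highest for the segment in D2 in H3K9me3. The lowest of these counts came from leaving out other libraries.

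Replicate numbers did not pair the libraries. With the replicate number as a block the counts were 91 and 91 in the lines, and 221, 1, 2 and 1 in the H3K9me3 repeats, in the order above. In the H3K27ac repeats the block was fitted with all 12 libraries separate, so 2 choices changed at once, and the counts were 224, 54, 37 and 26. Of 802 alternative values for 58 fold changes of named regions, 745 stayed on the same side of the threshold, 57 lost their call and 0 changed sign. H3K9me3 depth limits what could be tested: 217 of 534 regions passed the filter in the lines and 343 in the repeats.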
